A study of Mus musculus with 4 samples.

Results

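The genes described here are 38 genes that run mitosis, chosen by name and found as 38 of the 34315 features of the expression table, each in 1 row. They were read by RNA sequencing, after polyA selection, in freshly sorted haematopoietic stem cells (HSCs), from which the blood is renewed throughout life. The mice were of strain C57BL/6, and the sort was SP-KSL-CD150+, in which SP stands for side population, cells that pump out a DNA-binding dye. The wild-type group holds 4 libraries of 1 biological replicate, which the labels describe as technical replicates, and the other arm was labelled Dnmt3a-KO, lacking the DNA methyltransferase Dnmt3a, and enters only as the authors' mean over 4 libraries. The sources used here do not say how or in which cells Dnmt3a was deleted, nor how old the mice were.

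Mitosis is the stage at which a cell separates its copied chromosomes. Cyclin-dependent kinase 1, bound to cyclin A or B, drives a cell into it, kinetochores attach the chromosomes to spindle microtubules, a checkpoint holds the cell until all are attached, and the anaphase-promoting complex then marks cyclin B and securin for destruction. Most genes of this machinery are transcribed only late in the cycle, from S phase to mitosis, by factors that include Foxm1, Mybl2 and the MuvB complex, so their RNA is low in cells that do not divide. Adult HSCs are known as mostly resting cells, and mitotic RNA in such a sort can come from the few that cycle or from other dividing cells. In bulk RNA, fewer dividing cells and less RNA per dividing cell cannot be told apart.

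Values are normalised read counts, that is, reads per gene after scaling the wild-type libraries to each other. The authors' knockout mean was placed on the same scale. A fold change and an adjusted p are those of the authors' deposited table, and a gene is called where that p is under 0.05. Library totals ran from 40709659 to 47408552 counts, and the knockout mean totals 41930967. Libraries 1 and 2 agree closely with each other, as do libraries 3 and 4, while the pairs differ (the lowest median chi-square per degree of freedom was 12.0 between the pairs, against 0.763 and 0.682 within them), so the 4 libraries are best read as 2 averaged values. Dnmt3a itself stood at 8229, 8569, 5400.1 and 5208 normalised counts in wild type and at 8424 in the knockout arm, which does not check the label, since transcripts lacking the deleted part may still be made and counted.

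Mitosis genes were low in the knockout arm. Of the 38, all of which the authors tested, 18 were called lower (47.4%) and 0 were called higher by the authors' deposited table, in which 3.7% of the 21778 tested features were called lower and 3.15% higher. Their median log2 change by the authors' deposited table was -2.40, that is 5.27-fold lower, beside -0.10 over all tested features. The knockout mean lay below all 4 wild-type libraries for 35 of the 38, which holds for 37.9% of tested features. Summed over the 38 genes, reads made up 0.470%, 0.465%, 0.318% and 0.319% of all reads in wild-type libraries 1 to 4 and 0.0876% in the authors' knockout mean. The exact binomial 95% interval of that last share was 0.0872% to 0.0881%. Such an interval covers counting error at most, and no spread between libraries or animals. Because reads copied by PCR are not separate molecules, it may be too narrow even for counting error.

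The called genes are those with the 18 largest falls. The mildest called log2 change was -2.52, of Kif4, and the largest fall not called was -2.42, of Mybl2, by the authors' deposited table. The smallest fall called anywhere in it was also that of Kif4, at 5.72-fold, so genes 2- to 5-fold lower were not called at all. The sources used here do not say how the p-values were computed. Any wild-type spread behind them can only be that between libraries of 1 biological replicate, which may be technical, and the spread between the knockout libraries was not examined. The deposited scaling also matters for genes near 0: with both arms scaled by total counts, fold changes shift by -0.34 on the log2 scale (median over well-counted features), and 37 of the 38 genes rather than 36 have a negative value.

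**Figure D1:**
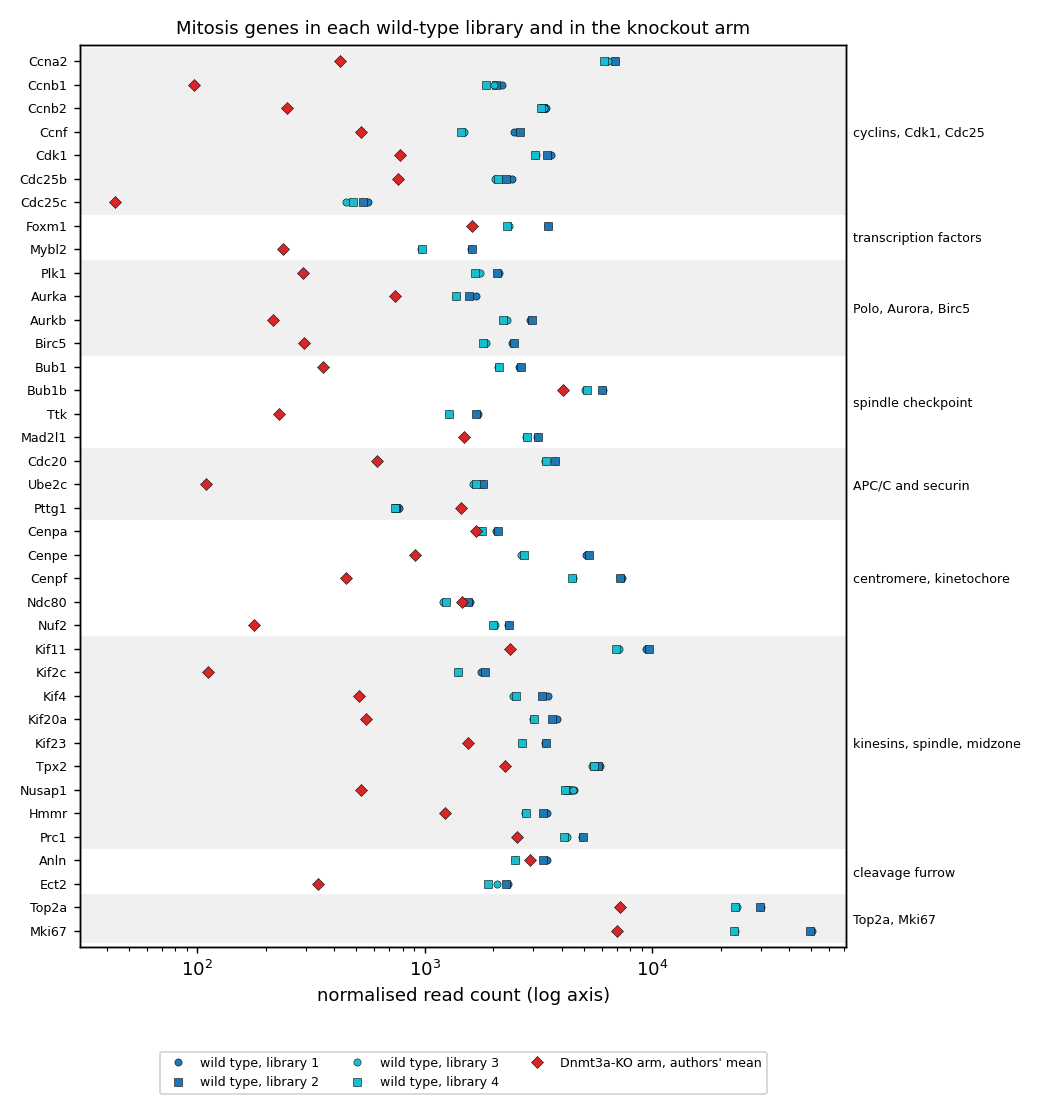
Normalised read counts (log axis) of the 38 mitosis genes, 1 row per gene grouped by role, in wild-type libraries 1 and 2 (dark blue), libraries 3 and 4 (light blue) and the authors' mean of the Dnmt3a-KO arm (red diamonds). The red diamond lies left of all 4 wild-type points for 35 genes, and not for Pttg1, Ndc80 and Anln.

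The largest fall was that of a mitotic cyclin. Ccnb1, which encodes cyclin B1 (chromosome 13, 101548694 to 101556441, mm9), was at 2189, 2065, 2009 and 1866 normalised counts in libraries 1 to 4 and at 96.9 in the knockout arm, with an exact Poisson 95% interval of 86.1 to 109 for its counting error. It fell 20.6-fold (adjusted p 0.000245) by the authors' deposited table, and the 4 wild-type libraries sit close together, far above the knockout value. The second B-type cyclin, Ccnb2, was at 3431, 3319.5, 3345 and 3233 in wild type and 248 in the knockout arm, a 13.4-fold fall (adjusted p 0.00177) by the authors' deposited table. Ccna2, cyclin A2, which acts from S phase into mitosis, went from 6866, 6841, 6412 and 6163 to 426 and fell 15.4-fold (adjusted p 0.000952) by the authors' deposited table; its span overlaps that of Exosc9, and since the named kit keeps no strand, the reads of such neighbours may be mixed. Cdc25c, a phosphatase that activates Cdk1, was at 563, 535, 450.2 and 484, and fell to 43.5, or 11.4-fold (adjusted p 0.00376) by the authors' deposited table.

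The kinase that these cyclins activate was not called. Cdk1 was at 3598, 3466, 3074 and 3044 normalised counts in wild type and 782 in the knockout arm, a log2 change of -2.08 (adjusted p 0.13) by the authors' deposited table. All 4 wild-type libraries were above the knockout value. Ccnf, a cyclin that serves as a ubiquitin ligase subunit, had a log2 change of -1.94 and an adjusted p of 0.174 by the authors' deposited table; its row is shared with the microRNA Mir5134. The smallest difference of the group was that of the phosphatase Cdc25b, at 2414, 2286, 2038 and 2094 in wild type and 766 in the knockout arm, with a log2 change of -1.53 (adjusted p 0.35) by the authors' deposited table. In all, 4 of the 7 genes of this group were called lower.

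Neither transcription factor of the mitotic programme was called. Mybl2, the B-Myb protein that joins MuvB, was at 1591, 1610.0, 965 and 971 normalised counts in libraries 1 to 4 and 239 in the knockout arm, a log2 change of -2.42 (adjusted p 0.0621) by the authors' deposited table. Foxm1, a forkhead factor that activates many of the other genes here, was at 3496, 3474, 2345 and 2305 in wild type, with 1608 in the knockout arm, a log2 change of -0.85 (adjusted p 0.725) by the authors' deposited table, in a row shared with 4933413G19Rik. For both genes the knockout value lay below every wild-type library, but libraries 3 and 4 were also well below libraries 1 and 2.

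Of the Polo and Aurora kinases with the survivin gene Birc5, 3 of 4 were called lower. Aurkb, the kinase of the chromosomal passenger complex, which corrects faulty attachments (chromosome 11, 68859145 to 68865164, mm9), was at 2905, 2951, 2292 and 2215 normalised counts and fell to 216, 11.9-fold (adjusted p 0.0029) by the authors' deposited table. Its partner in that complex, Birc5, went from 2428, 2478, 1864 and 1805 to 294 and fell 7.25-fold (adjusted p 0.021) by the authors' deposited table, where the antisense feature HAG_007539 lies over it. Plk1, which acts at centrosomes, kinetochores and the cleavage site, was at 2131, 2078, 1747 and 1672 in wild type, with 292 in the knockout arm, a fall of 6.49-fold (adjusted p 0.0315) by the authors' deposited table. Aurka, the centrosomal Aurora kinase, was not called: it was at 1686, 1559.8, 1379 and 1369 in wild type and 741 in the knockout arm, a log2 change of -1.01 (adjusted p 0.639) by the authors' deposited table.

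Of the 4 spindle checkpoint genes, 2 were called lower. Bub1, a kinetochore kinase, was at 2613, 2660.0, 2097 and 2133 normalised counts and fell to 359, 6.60-fold (adjusted p 0.0297) by the authors' deposited table. Ttk, the kinase that starts the checkpoint signal, went from 1722, 1675, 1286 and 1283 to 229.7 and fell 6.47-fold (adjusted p 0.0321) by the authors' deposited table. The proteins that carry the signal to the anaphase-promoting complex come from Bub1b and Mad2l1, and neither was called. Bub1b was at 6062, 6008, 5097 and 5174 in wild type and 4068 in the knockout arm, a log2 change of -0.46 (adjusted p 0.906) by the authors' deposited table, and Mad2l1 was at 3109, 3158, 2778 and 2828 in wild type, with 1482 in the knockout arm, where the authors' deposited table has an adjusted p of 0.645.

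Of 3 genes around the anaphase-promoting complex, 2 were called lower. Ube2c, the ubiquitin-conjugating enzyme that works with it (chromosome 2, 164595429 to 164598402, mm9), was at 1807, 1797, 1634 and 1680.1 normalised counts in wild type and 109.8 in the knockout arm, and fell 15.6-fold (adjusted p 0.000929) by the authors' deposited table. Cdc20, its activator in mitosis, went from 3760.1, 3740.3, 3376 and 3399.6 to 616 and fell 5.78-fold (adjusted p 0.0476) by the authors' deposited table, with Elovl1 overlapping part of its span on the other strand. Securin, the protein that holds back the cleavage of cohesin, comes from Pttg1, the only one of the 38 genes with a knockout value above every wild-type library. Pttg1 was at 774, 745, 751 and 741 in libraries 1 to 4 and 1449.9 in the knockout arm, a log2 change of 0.95 (adjusted p 0.675) by the authors' deposited table, or 0.61 with both arms scaled by total counts. It was not called, and its wild-type libraries lay within 741 to 774.

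Among 5 centromere and kinetochore genes, 2 were called lower and the other three spanned a wide range. Cenpf, a large kinetochore protein of late cycle (chromosome 1, 191464493 to 191511965, mm9), was at 7372, 7201, 4504 and 4463 normalised counts and fell to 449, 13.1-fold (adjusted p 0.00196) by the authors' deposited table. Nuf2, a subunit of the Ndc80 complex that binds microtubules, went from 2333, 2358, 2048 and 1989 to 178 and fell 12.2-fold (adjusted p 0.00269) by the authors' deposited table. Ndc80, its direct partner there, was not called. It was at 1587, 1548, 1200.0 and 1247 in wild type and 1465 in the knockout arm, inside the range of the wild-type libraries, with a log2 change of 0.07 (adjusted p 1) by the authors' deposited table; this value is -0.27 with both arms scaled by total counts. Cenpa, the histone H3 variant that marks centromeres, had a log2 change of -0.20, and the kinesin Cenpe -2.12 (adjusted p 0.977 and 0.118) by the authors' deposited table.

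Kinesins and spindle proteins gave 4 calls lower among 9 genes. Kif2c, which depolymerises microtubules at centromeres (chromosome 4, 116832241 to 116855229, mm9), was at 1770.1, 1847, 1403 and 1395 normalised counts and fell to 111, 14.2-fold (adjusted p 0.00141) by the authors' deposited table. Nusap1, a microtubule-bundling protein, went from 4538, 4273, 4480.5 and 4139 to 523 and fell 8.30-fold (adjusted p 0.0126) by the authors' deposited table; Oip5, on the other strand, overlaps it. Kif20a, a kinesin of the central spindle, fell from 3834, 3637, 2995 and 3034 to 550.4, 6.12-fold (adjusted p 0.0389) by the authors' deposited table, and overlaps Brd8 and Cdc23. The chromosome-arm kinesin Kif4 was at 3484, 3294, 2446 and 2532 in wild type and 512 in the knockout arm, a 5.72-fold fall (adjusted p 0.0492) by the authors' deposited table. For these 4 genes every wild-type library was at least 4 times the knockout value.

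The other five genes of this group were not called, although each had a knockout value below all 4 wild-type libraries. Kif11, the motor that pushes spindle poles apart, had a log2 change of -1.81 (adjusted p 0.22) by the authors' deposited table. The spindle assembly factor Tpx2 and the hyaluronan-binding spindle protein Hmmr had -1.32 and -1.33 (adjusted p 0.458 and 0.455) by the authors' deposited table. Kif23, a motor of the central spindle, had -0.97 (adjusted p 0.66) by the authors' deposited table. Prc1, which bundles the antiparallel microtubules of the midzone, was at 4899, 4957, 4216 and 4105 normalised counts in wild type and 2549.7 in the knockout arm, a log2 change of -0.83 (adjusted p 0.736) by the authors' deposited table.

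Of 2 cleavage furrow genes, 1 was called lower. Ect2, the exchange factor that activates RhoA at the furrow, was at 2337, 2281, 2084 and 1905 normalised counts and fell to 339, 6.32-fold (adjusted p 0.0344) by the authors' deposited table. Anln, an actin-binding scaffold of the furrow, was at 3461, 3299.6, 2508 and 2503 in libraries 1 to 4 and 2912 in the knockout arm, between the wild-type pairs. Its log2 change was -0.01 (adjusted p 1) by the authors' deposited table, and -0.36 with both arms scaled by total counts.

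Neither Mki67 nor Top2a, the genes with the highest levels per kb of exon in wild type, was called. Mki67, which encodes the proliferation antigen Ki-67, was at 50328, 49510.0, 23267 and 22919 normalised counts in libraries 1 to 4 and 7021 in the knockout arm, a log2 change of -2.38 (adjusted p 0.0673) by the authors' deposited table. Top2a, the topoisomerase that untangles sister chromatids, was at 30284, 29769.8, 23657 and 23251 in wild type, with 7221 in the knockout arm, a log2 change of -1.89 (adjusted p 0.189) by the authors' deposited table. Both knockout values lay under every wild-type library, and for Mki67 libraries 3 and 4 were also under 50% of libraries 1 and 2.

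**Figure D2:**
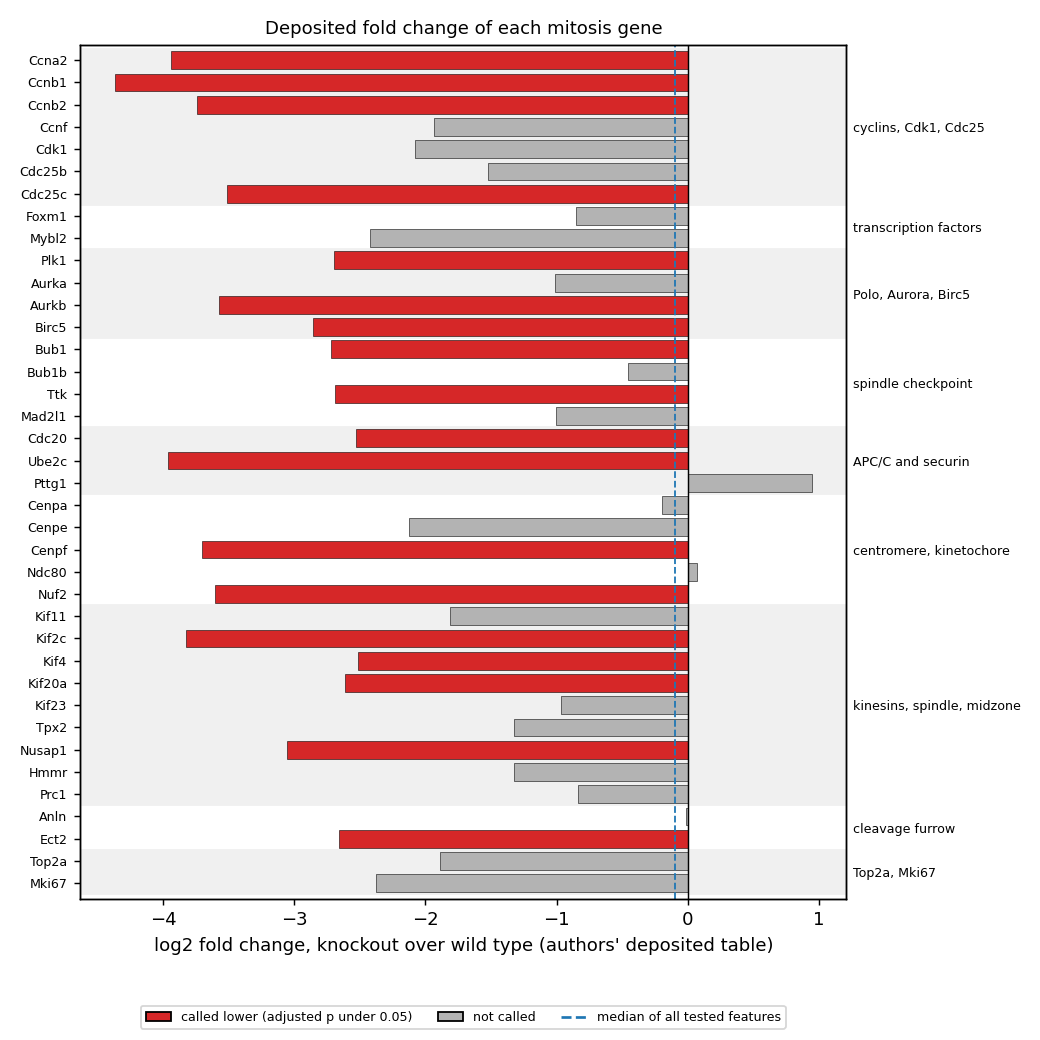
Log2 fold change of each mitosis gene, knockout over wild type, from the authors' deposited table, as bars from 0, grouped by role. Red bars are the 18 genes called lower and grey bars the 20 not called; the dashed line is the median of all tested features, -0.10, and the bars run from -4.37 for Ccnb1 to 0.95 for Pttg1.

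To compare levels between genes, counts were divided by exon length in kb. In wild type, normalised counts per kb ran from 264 for Cdc25c to 5161 for Top2a, with Mki67 at 3628, Ccna2 at 2344 and Ccnb2 at 2175. In the knockout arm the highest levels per kb were those of Top2a at 1394, Cenpa at 1266 and Bub1b at 1116, and the lowest those of Cdc25c at 22.6, Kif2c at 39.6, Cenpf at 40.4 and Ccnb1 at 42.0. Ccnb1 thus went from 881 per kb, close to the median of 869 over the 38 genes, to one of the lowest levels. The called genes were not the scarce ones in wild type: their median level was 869 per kb (range 264 to 2344), beside 843 (range 348 to 5161) for the 20 genes not called.

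Wild-type libraries also differed from each other in mitotic RNA, in 1 direction. All 38 genes had a lower mean in libraries 3 and 4 than in libraries 1 and 2, and for 35 of them both of the former were under both of the latter, which holds for 39.1% of tested features. The median log2 ratio of the pairs was -0.29 over the 38 genes and -0.01 over all tested features. It ran from -1.11 for Mki67, -0.95 for Cenpe, -0.80 for Ccnf, -0.73 for Mybl2 and -0.70 for Cenpf to -0.03 for Pttg1 and Nusap1. The pairs are not labelled groups and no test was made. Other lists differed between the pairs as well. Of 34 DNA replication genes 32 were lower in libraries 3 and 4, with a median log2 ratio of -0.36. Among lists described below, it was -0.43 for other kinetochore and centromere, -0.39 for other spindle, -0.41 for condensin and -0.32 for G1 genes. For subunits and regulators of the anaphase-promoting complex it was 0.08, for MuvB and DREAM genes -0.12 and for regulators of mitotic entry and exit -0.06. Immediate early genes, which respond quickly to stimulation, summed to 736 CPM (counts scaled to a common library total) in library 1 and 7737 in library 3. Neutrophil and myeloid markers summed to 1805 CPM in library 1 and 755 in library 3. Their part in the difference was not tested.

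**Figure D3:**
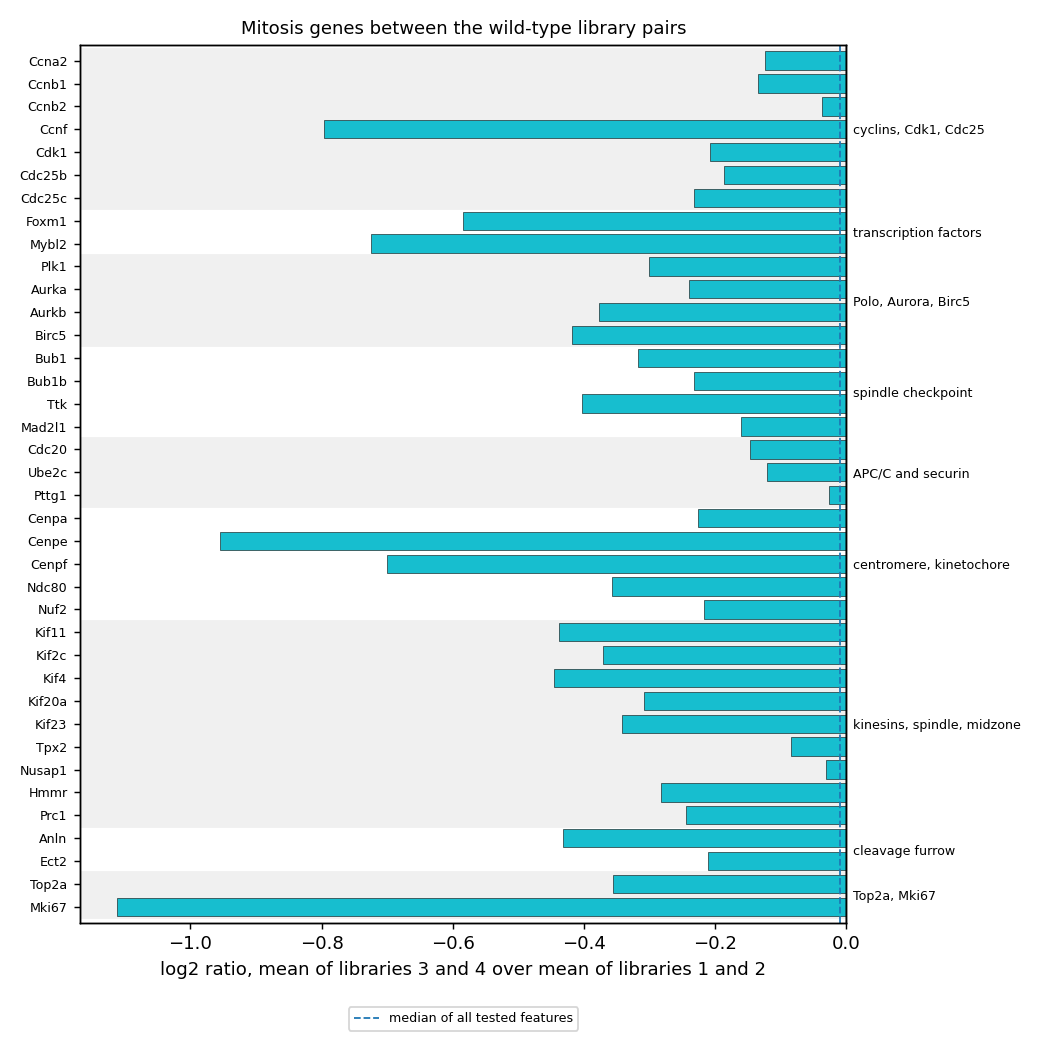
Log2 ratio of the mean normalised count in wild-type libraries 3 and 4 over that in libraries 1 and 2, as bars from 0, for each mitosis gene by role. Every bar points to the left, from -0.03 for Pttg1 to -1.11 for Mki67, and the dashed line is the median of all tested features, -0.01.

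The knockout arm was also set against each pair alone. Against libraries 3 and 4 alone, the median log2 ratio of the 38 genes was -1.99, and 14 were at least 5.72-fold lower. Against libraries 1 and 2 alone these values were -2.67 and 21.

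Mitotic genes outside the 38 were read from lists of the same pathway, with 3.7% of all tested features called lower for comparison. Of 37 other spindle, kinesin and cytokinesis genes, 19 were called lower and 0 higher by the authors' deposited table, with a median log2 change of -2.56. The largest falls were those of Fam64a, a late-cycle gene, at 41.3-fold, Ckap2l, a spindle protein, at 21.2-fold, Depdc1a at 17.9-fold and the kinesin Kif18b at 16.5-fold (adjusted p 8.55e-06, 0.000212, 0.000594 and 0.000713) by the authors' deposited table. Fam64a averaged 1589.7 normalised counts over the first pair of libraries and 1423 over the second, beside 34.9 in the knockout arm. Of 30 other kinetochore and centromere genes, 9 were called lower and 0 higher, with a median of -2.10 by the authors' deposited table. Oip5, which helps load Cenpa at centromeres, fell from a wild-type mean of 665 normalised counts to 40.5 (adjusted p 0.000904) by the authors' deposited table. The cohesin protector Sgol2 fell 12.4-fold, Ska1, of the microtubule attachment site, 12.1-fold and Nsl1 9.97-fold (adjusted p 0.00254, 0.00309 and 0.00629) by the authors' deposited table. Nsl1 overlaps the antisense feature HAG_002335, and Oip5 overlaps Nusap1.

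Other parts of the machinery gave few calls. The shares called lower in the lists that follow were 5.88%, 12.5%, 0% and 9.09%, in the order given, beside 3.7% of all tested features. Each share above 0% was that of 1 gene. Of 17 subunits and regulators of the anaphase-promoting complex, 1 was called, the inhibitor Fbxo5, which fell 5.83-fold (adjusted p 0.0464) by the authors' deposited table, and the list median was -0.51. Of 8 condensin subunits, Ncapg alone was called, 7.49-fold lower (adjusted p 0.0186) by the authors' deposited table, with a list median of -0.78; it overlaps Lcorl. None of 12 MuvB and DREAM complex genes was called, and their median was 0.19 by the authors' deposited table but -0.15 with both arms scaled by total counts. Rbl1, which encodes p107, had a log2 change of -1.87 and the MuvB subunit Lin54 1.55 (adjusted p 0.198 and 0.336) by the authors' deposited table. Among 11 kinases, phosphatases and their regulators that act on entry into or exit from mitosis, 1 was called lower. This was Mastl, the Greatwall kinase, which fell 7.20-fold (adjusted p 0.0221) by the authors' deposited table. Whether these lists differ from the 38 genes was not tested.

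Genes of earlier cycle phases were read in the same way. All 34 DNA replication genes had a negative log2 change by the authors' deposited table, with a median of -1.63. Of these, 3 were called lower (8.82%, beside 3.7% of all tested features). Tk1, thymidine kinase, fell 9.24-fold, the replication factor Mcm10 7.95-fold and Gins1 7.29-fold (adjusted p 0.00845, 0.015 and 0.0212) by the authors' deposited table. Tk1 overlaps Afmid on the other strand. Of 14 G1 cyclins, kinases and E2F or Rb genes, 1 was called (7.14%), E2f2, which fell 6.14-fold (adjusted p 0.039) by the authors' deposited table, with a list median of -0.30. On the scale of the deposited fold change, their summed level in the knockout arm was 81.6% of the wild-type mean, beside 37.4% for replication and 28.3% for the 38 mitosis genes.

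**Figure D4:**
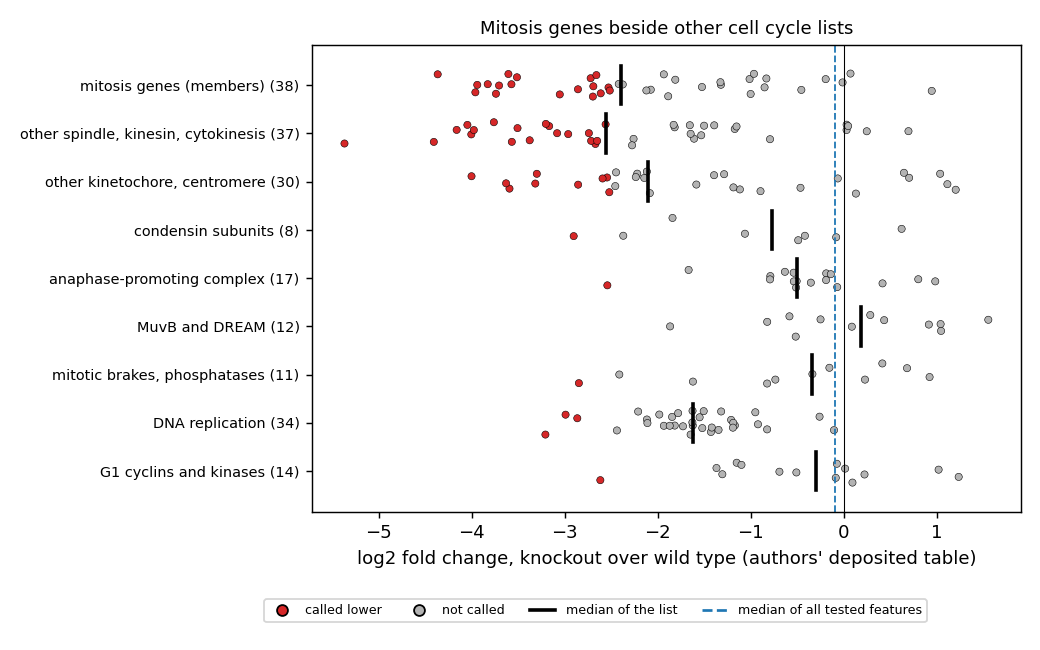
Log2 fold change, knockout over wild type, of each gene in the authors' deposited table for the 38 mitosis genes and 8 other cell cycle lists (number of genes in brackets; vertical position within a row is arbitrary). Red points are called lower and grey points not called; black bars are list medians, from -2.56 for other spindle genes and -2.40 for the 38 genes to 0.19 for MuvB and DREAM genes, and the dashed line is the median of all tested features.

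Promoters are shown because 18 of the 38 genes were called lower together and promoters of mitotic genes are known for paired elements, CCAAT boxes bound by NF-Y and the CHR element bound by MuvB. RefSeq promoter windows (250 bases before to 50 after an annotated start, GRCm38.p6) were at hand for 32 of the 38 genes, in 34 windows. They were searched on both strands for CCAAT, for the CHR forms TTTGAA and TTCGAA, and for the E2F-like GCGGGAA, and no hits of different motifs overlapped. A CCAAT lay in 25 of the 34 windows (73.5%), beside 37.4% of all 32851 windows in the table. A CHR form lay in 26 (76.5%), beside 19.2%, and both lay in 23 (67.6%), beside 7.52%. GCGGGAA was in 0 of the 34 and in 4.6% of all windows, and other E2F-like forms were not searched. Both motifs were in 10 of 15 windows of called genes and in 13 of 19 of the others. A match describes the letters and is not evidence of binding. The windows rest on annotated starts, which were not checked against the rows measured here, so some may lie inside a gene.

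The windows below are those of the strongest fall (Ccnb1), of strong falls with both motifs (Ube2c, Ccnb2), of a gene with both motifs and a value near 0 (Cenpa) and of the gene highest in the knockout arm relative to wild type (Pttg1). They are written 5′ to 3′ on the gene's strand, with CCAAT and CHR matches on either strand in capitals. In Ube2c the run of 8 capitals holds a CCAAT on each strand, which overlap.
Ccnb1 (chr13:100786437-100786736, minus strand): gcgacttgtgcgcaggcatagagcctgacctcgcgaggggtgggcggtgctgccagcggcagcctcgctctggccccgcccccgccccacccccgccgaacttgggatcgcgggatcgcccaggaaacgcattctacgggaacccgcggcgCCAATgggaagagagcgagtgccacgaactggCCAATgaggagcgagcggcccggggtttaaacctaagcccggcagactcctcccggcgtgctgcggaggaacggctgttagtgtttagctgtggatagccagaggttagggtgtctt
Ube2c (chr2:164769679-164769978, plus strand): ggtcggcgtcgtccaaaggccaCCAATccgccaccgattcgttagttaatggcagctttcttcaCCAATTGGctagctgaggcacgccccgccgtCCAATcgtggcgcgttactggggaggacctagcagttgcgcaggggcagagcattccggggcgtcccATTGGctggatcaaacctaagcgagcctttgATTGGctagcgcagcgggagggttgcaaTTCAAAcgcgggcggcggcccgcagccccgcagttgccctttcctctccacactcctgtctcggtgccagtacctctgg
Ccnb2 (chr9:70421505-70421804, minus strand): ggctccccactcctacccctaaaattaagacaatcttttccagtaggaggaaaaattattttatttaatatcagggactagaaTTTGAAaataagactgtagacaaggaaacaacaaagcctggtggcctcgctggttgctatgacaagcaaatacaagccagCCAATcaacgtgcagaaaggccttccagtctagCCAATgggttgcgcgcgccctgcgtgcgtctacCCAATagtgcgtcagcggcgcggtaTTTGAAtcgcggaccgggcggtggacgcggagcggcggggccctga
Cenpa (chr5:30666636-30666935, plus strand): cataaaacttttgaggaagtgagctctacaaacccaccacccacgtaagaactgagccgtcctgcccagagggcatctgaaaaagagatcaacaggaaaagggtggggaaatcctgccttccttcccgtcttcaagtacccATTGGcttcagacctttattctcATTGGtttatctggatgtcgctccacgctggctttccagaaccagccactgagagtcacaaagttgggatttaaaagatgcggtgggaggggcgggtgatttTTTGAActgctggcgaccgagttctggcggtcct
Pttg1 (chr11:43425932-43426231, minus strand): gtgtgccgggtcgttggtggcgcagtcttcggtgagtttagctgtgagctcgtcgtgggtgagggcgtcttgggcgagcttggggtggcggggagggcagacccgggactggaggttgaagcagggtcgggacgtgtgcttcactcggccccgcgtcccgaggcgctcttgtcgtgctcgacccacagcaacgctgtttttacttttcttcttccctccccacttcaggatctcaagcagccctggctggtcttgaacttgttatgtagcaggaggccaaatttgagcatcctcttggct

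In these windows Ccnb1 has 2 CCAAT matches, the first beginning at -99 and the next at -67 from the start, and no match to either CHR form. Ube2c has 6 CCAAT matches and 1 CHR match, at -29. Ccnb2 has 3 CCAAT matches, at -87, -54 and -21, with CHR matches at -167 and 5. Cenpa, with a log2 change of -0.20 by the authors' deposited table, has 2 CCAAT matches, at -109 and -86, and a CHR match at 17. The Pttg1 window holds 0 of each. An annotated start can differ from the start used in these cells, so this does not show that the Pttg1 promoter lacks them.

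Markers of differentiated blood cells also differed between the arms. Of 22 tested erythroid markers, 12 were called lower (54.5%, beside 3.7% of all tested features) and 0 higher by the authors' deposited table. The list summed to 1173 to 1377 CPM in wild type and 528 in the knockout arm. Most of that sum was Car2, at 44766 normalised counts in wild type and 19730 in the knockout arm, which was not called. Among the largest falls, Rhag fell 106-fold, Car1 60.5-fold and Ermap 52.9-fold (adjusted p 4.05e-07, 1.18e-06 and 2.91e-06) by the authors' deposited table, and Cldn13 had 0 reads in the knockout arm. Of the 22 markers, 21 had a negative log2 change, and Tfrc alone was positive, at 1.76 (adjusted p 0.243). Epor, at -0.99, and the globin rows, at -0.86 to -0.05, were not called by the authors' deposited table. Of 20 lymphoid markers, 7 were called lower by the authors' deposited table, with sums of 80.1 to 89.7 and 25.8 CPM and Cd3e, Ms4a1, Il7r and Pax5 at 0 in the knockout arm. Over the 4 wild-type libraries together these had 35, 66, 279 and 16 reads. Cd3e and Pax5 were not called (adjusted p 0.158 and 0.477) by the authors' deposited table. Of tested mast cell and basophil markers 5 of 8 were called lower by the authors' deposited table, with 33.2 to 49.3 and 15.4 CPM and Cma1 and Tpsb2, not tested, at 0 in wild type. For megakaryocyte markers it was 4 of 15, with 2105 to 2620 and 2514 CPM. Gp6, not tested, was at 0 in the knockout arm and had 5 reads over the 4 wild-type libraries. For stromal and endothelial markers it was 3 of 13, with 156 to 216 and 97.0 CPM. Among the called mast cell and basophil markers, Prss34 and Mcpt8 averaged 28.9 and 38.3 normalised counts over libraries 1 and 2. They averaged 454 and 232 over libraries 3 and 4, and were at 6.26 and 14.2 in the knockout arm. Fcer1a and Il1rl1, also called, averaged 273 and 220 over the first pair and 304 and 328 over the second. Hdc alone in that list was positive, at 2.03 (adjusted p 0.145) by the authors' deposited table. Neutrophil and myeloid markers had 1 of 20 called lower (5%) by the authors' deposited table and summed to 755 to 1805 and 962 CPM. These CPM sums scale both arms by total counts, unlike the deposited fold change. On the scale of the latter, the knockout sum was 52.0% of the wild-type mean for erythroid markers, 38.3% for lymphoid and 47.3% for mast cell and basophil markers. It was 134% for megakaryocyte, 65.8% for stromal and endothelial and 96.2% for neutrophil and myeloid markers. The KSL gate keeps cells with Kit and Sca-1 and is meant to remove those that carry mature lineage markers. The part of other cells in the fall of the mitosis genes was not tested. Immediate early genes had 5 of 26 called higher and 3 lower by the authors' deposited table, beside 3.15% and 3.7% of all tested features. They summed to 736.5 to 7737 CPM in wild type and 5595 in the knockout arm. Klf2, called lower, averaged 51.4 normalised counts over libraries 1 and 2, 4082 over libraries 3 and 4 and 117 in the knockout arm. Of 16 stem cell markers 1 was called lower, Gfi1b (22.3-fold, adjusted p 0.000172), and 0 higher by the authors' deposited table. Of the 16, 11 had a positive log2 change and 5 a negative one by the authors' deposited table, with a median of 0.365. This median was 0.037 with both arms scaled by total counts. The list summed to 3776 to 4600 CPM in wild type and 3184 in the knockout arm. On the scale of the deposited fold change, the knockout sum was 95.7% of the wild-type mean.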

How the data were processed

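Per the labels' protocols, RNA was isolated with the Qiagen RNeasy Micro kit, selected for polyA and prepared with a TruSeq RNA kit. Counts of whole reads were deposited by the authors for 4 wild-type libraries. The submitters' processing notes list mm9 and DESeq without saying how each was used; aligner and counter: not given in the sources used here. A signal headed FPKM was also deposited; divided by the count it gave 1 value in all 4 libraries for 20187 features (relative tolerance 1e-09), so it was used only for exon lengths. The knockout mean count is also a signal averaged by the authors. The log2 change and the p-value are the authors' deposited values, and the p-value is read as adjusted, since 1549 of 21778 equal 1. Of the table's columns, 8 with per-library values fit no sample listed here and stayed unused.

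Median-of-ratios size factors (0.951, 0.955, 1.048 and 1.065) scaled the wild-type counts, and the knockout mean was brought to their scale by the offset of 0.40 on the log2 scale between the deposited fold change and the raw ratio (11936 features, SD 0.0030). No test between arms was run, since wild type is 1 biological replicate and the knockout arm a mean. At these depths 0 reads in a library allows up to 0.0633 to 0.0737 CPM, taking 3 counts as the floor. Members and lists were chosen with earlier results of these data known. All members are accounted for. Full values are given for called members and the most and least changed of each role, and for up to 4 called genes per other list (mean of both arms at least 50), or 2 where none was called, with examples in the text. List names with no match included Ska2, Ska3, Mis18a, Knstrn and Bora. Windows for Aurkb, Ccna2, Cdc25c, Foxm1, Kif20a and Tpx2 were not used here. Other settings tried were thresholds, scaling, pseudocounts, minimum levels, overlapping rows and the wild-type reference. Python 3.11.15, numpy 2.4.6, pandas 2.3.3 and scipy 1.17.1 were used. Scripts were tested on simulated data.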

Additional observations from a re-analysis of the deposited data

How the results depend on the processing

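The count of 18 genes called lower was 9 at an adjusted p under 0.01 and 20 under 0.1 in the authors' deposited table, and 13 without the genes whose rows overlap or are shared with another feature. By fold alone, at least as far down as the smallest called fall, it was 16 to 20 when each wild-type library was left out in turn and 20 with both arms scaled by total counts, settings chosen after seeing the data. The median log2 change of -2.40 was -1.99 against libraries 3 and 4 alone, -2.54 to -2.24 with 1 library left out, and -2.75 with both arms scaled by total counts. The median difference between the wild-type pairs, -0.29, was -0.36 with total counts and -0.31 to -0.26 with 1 library left out. The mean share of reads, 0.393%, was 0.367% to 0.418% with 1 library left out. Of 266 values for single genes, 5 changed sign, all of Ndc80 or Anln, and none of those of the 18 called genes was above -2.28. No paired analysis was possible because the labels give 1 group only. The knockout arm is a single mean, so its own spread limits every fold change here and was not examined.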

Other observations

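Partners in 1 protein complex had unlike values in several cases, named here after their values were seen. In the Ndc80 complex, Nuf2 and Spc25 were called lower, at -3.61 and -2.55, Spc24 was at -2.09 (adjusted p 0.128) and Ndc80 at 0.07 (-0.27 with both arms scaled by total counts), all log2 changes of the authors' deposited table. In the chromosomal passenger complex, Aurkb, Birc5 and Cdca8 were called lower, at -3.57, -2.86 and -2.59, while Incenp, their scaffold, was at 0.65 (adjusted p 0.833) by the authors' deposited table, or 0.30 with both arms scaled by total counts. Separase, from Espl1, fell by 3.38 on the log2 scale (adjusted p 0.00513) by the authors' deposited table, while Pttg1, which encodes its inhibitor securin, was at 0.95. In centralspindlin, Kif23 was at -0.97 and Racgap1 at 0.03 by the authors' deposited table, the latter -0.31 with both arms scaled by total counts. The differences between partners were not tested.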
